A study of Mus musculus with 2 samples.

Results

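Interferon-responding hepatocytes were examined as the 300 liver cells with the highest share of interferon-induced transcripts among 26683 hepatocytes in 2 single-cell libraries, out of 39559 barcodes in all. Hepatocytes were cells with 2000 to 10000 genes, at most 100000 UMIs (unique molecular identifiers, each a captured probe molecule), a mitochondrial share of at most 5% and at most 2 UMIs of Ptprc, Pecam1 and Dcn together, which mark leukocytes, endothelial cells and fibroblasts. The members were chosen by the summed UMIs of 7 selection genes (Rsad2, Ifit1, Ifit2, Ifit3, Ifit3b, Cmpk2 and Cxcl10) divided by all UMIs of the cell, so high values of these 7 genes describe the choice and are not a result. They were compared with the other 26383 hepatocytes of the same libraries. Both libraries came from male, heterozygous p16-Tom mice that carried a tamoxifen-dependent Cre under the p16Ink4a promoter and a Cre-dependent tdTomato reporter, and that received 4 weeks of carbon tetrachloride (CCl4), a hepatotoxin, together with tamoxifen. The label therefore records p16Ink4a promoter activity when tamoxifen was given, and no untreated liver was included. Liver tissue was fixed before dissociation, and cells stained for nuclei and mitochondria were sorted into a p16low (Tom-) and a p16high (Tom+) fraction, each giving 1 library. Neither the number nor the age of the mice was stated for these libraries.

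When interferon binds its receptor, JAK kinases activate latent transcription factors, which join IRF9 and bind interferon-stimulated response elements (ISREs) upstream of antiviral genes. Interferon-gamma induces IRF1, a further transcription factor, and NF-kB, activated by damage signals and cytokines, adds chemokines such as Cxcl10 and acute phase proteins to the hepatocyte response. Hepatocytes express interferon receptors and are able to mount this response next to Kupffer cells, the resident macrophages of the liver, which respond strongly as well.

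Most of the selection genes and several genes outside the selection carried ISRE cores in the stretch before their start, as shown by the following 250-base upstream sequences. They belong to Rsad2 and Ifit3, the selection genes with the most UMIs in the members, to Isg15, Gbp2 and Socs1, which stood apart from the other hepatocytes without having been selected on, and to Cxcl10, which had the most UMIs of the selection genes in some of the members. Sequences are from RefSeq promoters on GRCm38.p6 (mm10), read 5′ to 3′ on the gene's strand and ending at the base before the start, and capitals mark the ISRE core GAAANNGAAA on either strand (TTTCNNTTTC when it lies on the other strand), with overlapping cores run together.
Rsad2, chr12:26456453-26456702, minus strand: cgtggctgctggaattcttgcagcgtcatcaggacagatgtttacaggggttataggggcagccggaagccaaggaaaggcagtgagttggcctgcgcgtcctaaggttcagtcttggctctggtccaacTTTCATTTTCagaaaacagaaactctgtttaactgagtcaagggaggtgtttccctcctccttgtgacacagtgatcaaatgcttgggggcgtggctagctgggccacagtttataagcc
Ifit3, chr19:34583279-34583528, plus strand: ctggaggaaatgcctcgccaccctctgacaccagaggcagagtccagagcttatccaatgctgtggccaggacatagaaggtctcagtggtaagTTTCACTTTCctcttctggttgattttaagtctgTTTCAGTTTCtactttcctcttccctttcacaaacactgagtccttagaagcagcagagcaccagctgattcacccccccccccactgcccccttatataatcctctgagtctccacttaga
Isg15, chr4:156200819-156201068, minus strand: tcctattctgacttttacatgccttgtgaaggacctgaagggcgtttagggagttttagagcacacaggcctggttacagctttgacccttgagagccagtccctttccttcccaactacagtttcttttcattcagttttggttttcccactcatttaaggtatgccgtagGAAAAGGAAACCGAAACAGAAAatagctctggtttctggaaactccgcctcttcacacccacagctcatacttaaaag
Gbp2, chr3:142620413-142620662, plus strand: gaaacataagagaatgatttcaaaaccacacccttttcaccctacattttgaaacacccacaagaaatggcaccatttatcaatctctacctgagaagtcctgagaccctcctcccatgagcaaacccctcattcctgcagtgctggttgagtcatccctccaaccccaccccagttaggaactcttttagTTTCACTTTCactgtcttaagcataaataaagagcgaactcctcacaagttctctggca
Socs1, chr16:10785537-10785786, minus strand: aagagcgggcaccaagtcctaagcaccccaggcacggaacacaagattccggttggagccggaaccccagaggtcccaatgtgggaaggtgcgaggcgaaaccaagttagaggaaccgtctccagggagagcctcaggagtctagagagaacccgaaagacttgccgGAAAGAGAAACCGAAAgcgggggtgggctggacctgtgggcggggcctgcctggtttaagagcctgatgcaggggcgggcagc
Cxcl10, chr5:92348890-92349139, minus strand: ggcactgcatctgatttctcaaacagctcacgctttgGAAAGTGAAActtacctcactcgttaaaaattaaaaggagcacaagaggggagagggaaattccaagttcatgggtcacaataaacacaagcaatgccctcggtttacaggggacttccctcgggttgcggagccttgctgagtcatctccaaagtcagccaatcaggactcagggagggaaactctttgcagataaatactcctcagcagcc

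The Rsad2 core began 120 bases before the start, the Cxcl10 core 213 bases and the Gbp2 core 59 bases. Ifit3 held 2 cores, Socs1 2 overlapping cores and Isg15 3 overlapping cores. Of the 7 selection genes, 5 held a core between 250 bases before and 50 bases after the start, and Cmpk2 and Ifit2 held none. Every sequence shown holds a core, but not every gene that stood apart did. Outside the selection Tgtp1 also held one, whereas Oasl1, Irf7, Cd274, Cxcl9, Ifi44, Irf1 and Cxcl2 held none in this window. A core was present in 1079 of the 27025 RefSeq promoters of this length (3.99%). Among the guanylate-binding and immunity-related GTPases 10 of the 11 genes with a promoter in the table held one, and among the antiviral effectors 14 of 39. None of the 15 NF-kB targets, the 6 interferon-gamma-led genes or the 11 hepatocyte identity genes with a promoter in the table held one. These matches describe letters in a fixed window and were not tested as binding sites.

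The selection genes are grouped in the genome. Ifit2, Ifit3, Ifit3b and Ifit1 encode tetratricopeptide proteins that bind viral RNA, and their starts lie within 90.2 kb on chromosome 19. Rsad2 (viperin, a radical SAM enzyme that makes an antiviral nucleotide) and Cmpk2 (a mitochondrial nucleotide kinase that supplies its substrate) have their starts 12.8 kb apart on chromosome 12. Cxcl10, which attracts activated T cells through CXCR3, lies 20.8 kb from its paralog Cxcl9 on chromosome 5.

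The value used for the choice fell off without a gap. The highest member held 1102 selection-gene UMIs among 56459, which is 19519 counts per 1000000 UMIs (CPM). Rank 10 held 9309 CPM, rank 100 1656 CPM and rank 200 927 CPM. Just inside the limit, rank 299 held 4 selection-gene UMIs of 6642 (602 CPM) and rank 300 held 2 of 3336 (599.5 CPM). Just outside it, rank 301 held 5 of 8356 and rank 302 held 4 of 6685 (both 598.4 CPM). The limit thus cuts through a continuous range, and in a cell of low depth it was met by 2 UMIs. Of the other hepatocytes 51.7% in the Tom- library and 56.3% in the Tom+ library held no UMI of the 7 genes.

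**Figure D1:**
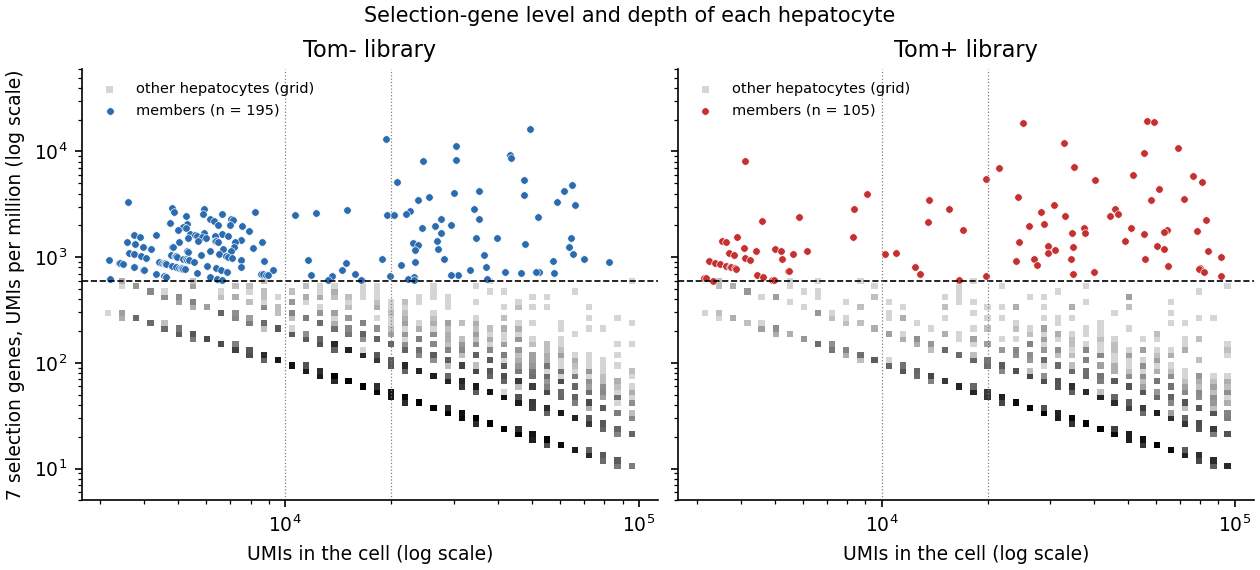
Selection-gene level in CPM against UMIs per cell, both on log scales, for the 195 Tom- and 105 Tom+ members (coloured points) and for other hepatocytes with at least 1 selection-gene UMI (grey squares, darker where a grid square holds more cells). The dashed line is the lowest member and the dotted lines are 10000 and 20000 UMIs. Members fall into a group with few UMIs near the limit and a group with many UMIs that reaches the highest levels.

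Depth divided the members. The median member held 6882 UMIs in the Tom- library and 24275 in the Tom+ library, against 24731 and 33095 in the other hepatocytes. In the Tom- library 59 members had at least 20000 UMIs (called deep below), 15 had 10000 to 20000 and 121 had fewer than 10000 (called shallow). In the Tom+ library the numbers were 55, 11 and 39. Shallow cells made up 62.1% of Tom- and 37.1% of Tom+ members, against 11.4% and 6.03% of the other hepatocytes. Of the 25 highest members 1 was shallow, and of those ranked 201 to 250, 37 of 50 were. A majority of the deep members carried several of the 7 genes at once: 43 of 59 Tom- and 46 of 55 Tom+ deep members had at least 5 of them detected, and 12 and 14 had all 7. Among shallow members 16 of 121 and 5 of 39 had at least 5.

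The label was checked against cell type markers. Deep members were hepatocytes by content. Their 15 hepatocyte identity genes, such as Alb, Apoa1, Ttr and Hnf4a, summed to 190770 CPM (Tom-) and 188480 CPM (Tom+), against 199450 and 193770 CPM in other deep hepatocytes, and 0 of these 15 genes differed 2-fold. The 20 macrophage markers summed to 636 and 430 CPM in deep members and 449 and 346 CPM in other deep hepatocytes. Clec4f, a Kupffer cell lectin receptor, was at 52.5 against 34.0 CPM (Tom-) and 31.0 against 24.5 CPM (Tom+), and Cd5l, a Kupffer cell secreted protein, at 192 against 151 and 98.0 against 105.7 CPM. Mpeg1 alone among the tested macrophage markers was at least 2-fold higher (114 against 29.5 CPM and 110 against 28.5 CPM). It encodes the pore-forming protein perforin-2.

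Shallow members were a mixed set. Macrophage markers made up at least 1% of UMIs in 37 of the 121 shallow Tom- members (30.6%, 95% interval 22.5 to 39.6). In Tom+ it was 21 of the 39 shallow members (53.8%, 37.2 to 69.9). Among shallow other hepatocytes the shares were 5.58% and 6.32%. Of the deep members 0 of 59 and 0 of 55 passed 1%, with exact intervals that reach 6.06% and 6.49%. Other deep hepatocytes rarely passed it either, with 5 of 9559 and 0 of 8129. In the macrophage-rich shallow members the hepatocyte identity genes had a median of 103270 CPM (Tom-) and 91794 CPM (Tom+), against 193670 CPM in the remaining shallow Tom- members. The 18 shallow Tom+ members that were not macrophage-rich had a median of 75758 CPM of hepatocyte identity genes and summed to 6922 CPM of endothelial markers, against 614 CPM in shallow other hepatocytes that were not macrophage-rich. For the deep members the hepatocyte part of the label thus rests on their identity genes. Their summed macrophage markers were higher than in other deep hepatocytes (log2 0.50, 0.43 to 0.58, in Tom- and 0.31, 0.23 to 0.40, in Tom+). The shallow members included profiles that carried transcripts of other liver cells. How these transcripts entered the profiles was not tested. The results below are for deep cells, members and others alike, unless all depths are named. This limit to deep cells was chosen after seeing the data.

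**Figure D2:**
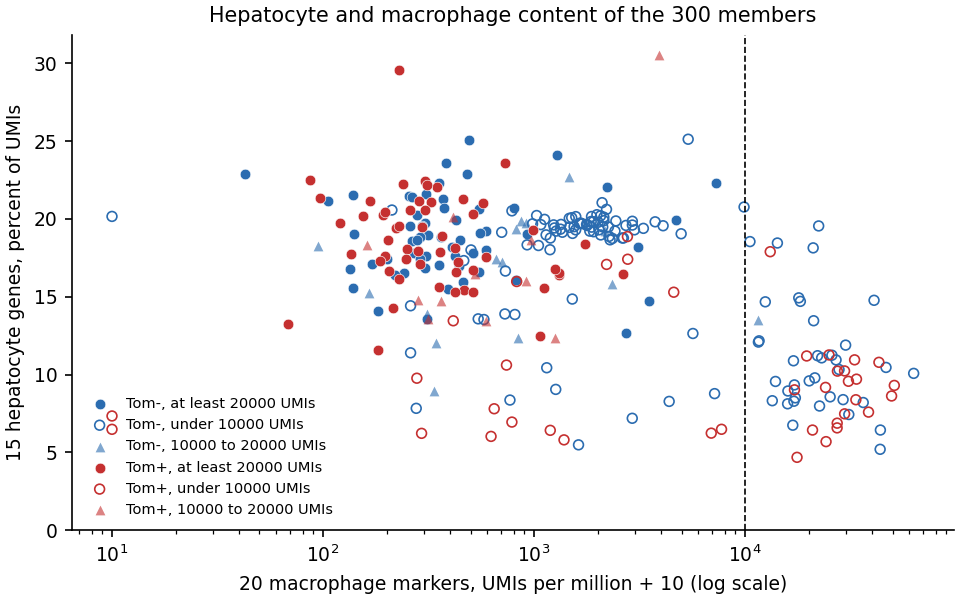
Summed hepatocyte identity genes (percent of UMIs) against summed macrophage markers (CPM plus 10, log scale) in each of the 300 members. Filled circles are deep members, open circles shallow members, triangles those between, and the dashed line marks 1% of UMIs from macrophage markers. All 114 deep members lie left of the line. The profiles right of it hold fewer hepatocyte transcripts in the median than deep members, as do the shallow Tom+ members left of it.

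In deep cells the selection genes had the following levels, given as a description of the choice. Rsad2 was at 1072 CPM in Tom- and 1364 CPM in Tom+ members, and at 4.90 and 3.41 CPM in other hepatocytes. Ifit3 was at 617 and 714 CPM, against 6.75 and 4.99. Cmpk2 reached 399.9 and 521 CPM, against 7.47 and 5.47. Each of the 3 was detected in most deep members (Rsad2 in 49 of 59 and 49 of 55). Cxcl10 stood at 295 and 393 CPM, against 2.02 and 2.12, but came from 35 of 59 and 36 of 55 members. Ifit3b, a near-identical neighbour of Ifit3 whose probes may not separate the paralogs, stood at 225 and 347 CPM, Ifit1 at 117 and 144 CPM and Ifit2 at 54.2 and 60.1 CPM. Probe-based counts do not compare levels between genes, so levels are compared for the same gene between cells.

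A feature outside the 7 genes was compared where it reached 10 CPM in members or in others and 20 UMIs over both, and it was called higher or lower at a 2-fold ratio of summed counts. A feature far below 10 CPM in others was compared only where members reached 10 CPM, and its call as higher then followed from this minimum. The counts over all features and over gene lists both include such features. With 1 library per group and cells that are not replicates, no test was possible, no p-value is given, and intervals cover counting error only. Among deep cells 178 of 7919 features were higher in Tom- members (2.25%) and 163 of 7944 in Tom+ members (2.05%). In both libraries 131 of 7756 were higher (1.69%) and 1 was lower (0.0129%). Over all depths the numbers were 581 of 8408 (6.91%) in Tom-, 400 of 8234 (4.86%) in Tom+ and 354 of 8084 in both (4.38%), with 1 lower in both (0.0124%). Each list count below is to be read beside the share over all features of its library and depth. Macrophage markers moved with the larger count: 19 of 19 tested were higher over all depths in Tom- and 17 of 17 in Tom+, against 1 of 12 and 1 of 9 in deep cells, and endothelial markers went from 11 of 13 and 10 of 11 to 0 of 9 and 0 of 4.

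Antiviral effectors outside the selection were higher in the members of both libraries. In deep cells 28 of the 35 tested were at least 2-fold higher in Tom- and 30 of 36 in Tom+, where 2.25% and 2.05% of all features were. Over all depths it was 36 of 42 and 37 of 43, where 6.91% and 4.86% of all features were. The median log2 ratio over the tested effectors in deep cells was 1.57 and 1.76, against 0.03 and -0.04 over all features. Summed over the 46 measured effectors, a deep Tom- member held 4808 CPM in the median (lowest 2508, highest 14373) and a deep Tom+ member 5323 CPM (lowest 1739, highest 13001), and the median of other deep hepatocytes was 2152 and 2020 CPM. Of the deep members 51 of 59 and 48 of 55 lay above the 95th percentile of the others. The remaining 8 and 7 members lay within the range of most other hepatocytes. In a further choice over all depths, hepatocytes were limited to 2 UMIs over the macrophage list, which kept 2922 cells. The 300 highest of these were chosen anew (164 Tom- and 136 Tom+), and 18 of them were main members. In these newly chosen cells 10 of 34 and 6 of 33 effectors passed 2-fold. Since 300 is a larger part of 2922 than of 26683 cells, the macrophage limit cannot be told apart from the looser choice.

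Isg15, a ubiquitin-like protein that is conjugated to proteins under interferon, was among the genes that stood farthest apart. It was at 767 CPM in Tom- members and 863 CPM in Tom+ members, against 44.4 and 41.3 CPM, a log2 ratio of 4.11 and 4.39. The median deep member held 763 and 849 CPM. After every deep cell was thinned to 20000 UMIs, Isg15 was detected in 94.9% and 98.2% of members against 54.6% and 51.2% of others, so that the groups overlapped in detection. Clec4f, the Kupffer cell gene, was detected after thinning in 35.6% and 29.1% of members and 35.4% and 27.1% of others. Whether a UMI in a hepatocyte profile was that cell's own transcript was not tested. Before thinning Isg15 was detected in 94.9% of Tom- members and all 55 Tom+ members against 73.3% and 72.6% of others, at median depths of 34194 and 46775 against 35552 and 39395 UMIs.

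The other effectors included Oasl1, an oligoadenylate synthetase-like protein that limits interferon production (142 and 194 CPM, against 8.34 and 8.36). Ifi44, an interferon-induced protein, was at 29.5 and 61.2 CPM against 2.40 and 1.90. The helicase Ddx60, the ubiquitin ligase Herc6, Parp14 and Trim30a had log2 ratios of 2.42 to 3.14 in Tom- and 2.93 to 3.67 in Tom+. Some effectors differed little. Bst2 (tetherin, which holds budding virus at the membrane) was at 855.3 and 873 CPM against 587 and 535, Ifitm2 at 296 and 259 against 274 and 236, and Ifitm3 at 114 and 118 against 89.3 and 81.7. Together with Ifi27, Trim25 and Ube2l6 these stayed under 2-fold in both libraries. Oas2 and Lair1, which were among the 15 features with the largest ratios over all depths, were not compared in deep cells, where they lay under 10 CPM (Oas2 at 7.94 and 5.83 CPM in members).

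Interferon-induced GTPases, which coat and disrupt the vacuoles of intracellular pathogens, were higher where tested. Of the 17 measured, it was 15 of 15 in deep Tom- and 13 of 13 in deep Tom+ cells. Over all depths it was 15 of 15 and 14 of 14. Their median log2 ratio in deep cells was 2.98 and 2.91. Genes low in others, such as Tgtp1, were tested only because members reached 10 CPM, so their calls were fixed by the minimum. Gbp2 was at 164 and 167 CPM against 7.34 and 7.05, and Tgtp1 (an immunity-related GTPase) at 34.8 and 49.5 against 1.36 and 1.90. Gbp6, Gbp7 and Gbp9 had log2 ratios of 3.44, 3.35 and 4.58 in Tom- and 3.62, 3.75 and 5.04 in Tom+, and the gene models of Gbp9 and Gbp4 overlap, so that their counts may not be separate. Iigp1, already abundant in other hepatocytes, was at 817 and 825 CPM against 266 and 246. Summed over the 17 genes, 56 of 59 and 49 of 55 deep members lay above the 95th percentile of the other hepatocytes.

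**Figure D3:**
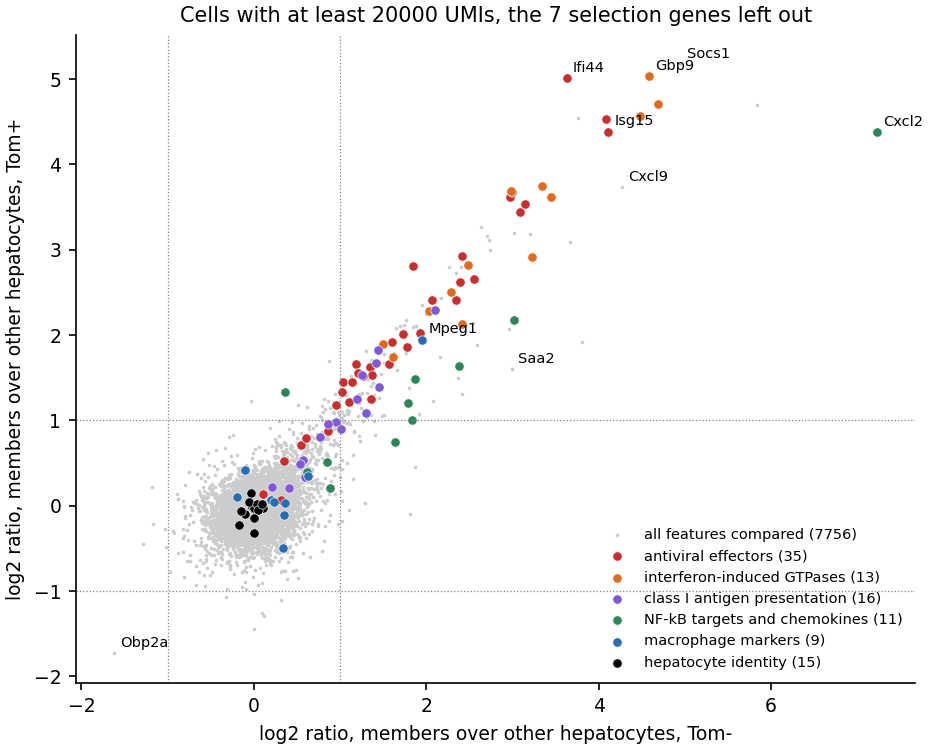
log2 ratio of summed counts in deep members over other deep hepatocytes, Tom- on the horizontal and Tom+ on the vertical axis, for the 7756 features compared in both libraries (grey) and for gene lists (colours), without the selection genes. Dotted lines mark a 2-fold ratio. Effectors and GTPases lie along the diagonal to the upper right, hepatocyte identity genes and all plotted macrophage markers but Mpeg1 lie within 2-fold, and Obp2a is the feature lower in both.

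Among the components of the pathway itself, receptors and most transducers did not differ 2-fold. Of the transducers 4 of 12 were higher in deep Tom- and 3 of 10 in deep Tom+ members. Summed over the list they were at 1375.5 against 615 CPM and 1421 against 549 CPM. The interferon ligands had 0 UMIs over the 14 measured genes in all 300 members, which allows up to 0.946 CPM in Tom- and 0.972 CPM in Tom+ members by 3 counts. All the other hepatocytes together held 21 and 36 UMIs, which is 0.0457 and 0.0921 CPM, so that a difference was not detectable at this depth. Of the receptor genes 0 of 5 and 0 of 4 differed: Ifnar1 was at 42.3 and 35.3 CPM in deep members against 44.9 and 42.9, and Ifnar2 at 83.8 and 89.2 against 87.7 and 86.9. Over all depths, where macrophage and endothelial markers were also higher, 2 of 5 and 1 of 5 receptor genes passed 2-fold. The kinases Jak1 and Tyk2 and the factors Stat2, Irf9 and Irf3 were also under 2-fold. Irf7, which amplifies interferon transcription, was higher, at 557 and 519 CPM against 166 and 119, as was Irf1 at 85.1 and 117 against 30.7 and 40.1. Irf8 was higher in Tom- (10.6 against 3.18 CPM) and was not tested in Tom+.

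Sensors of foreign nucleic acid split in the same way. In deep cells 5 of 8 tested were higher in Tom- and 6 of 8 in Tom+. The RNA sensors Ifih1 (MDA5) and Dhx58 (LGP2) were at 178 and 198 CPM against 56.5 and 46.9, and at 150 and 164 against 29.5 and 24.8. Zbp1, a sensor of Z-form nucleic acid, was at 109 and 99.1 CPM against 11.9 and 10.9. The endosomal receptor Tlr3 was at 29.5 and 42.2 CPM against 4.57 and 4.72. Their adaptors were not higher in both: Mavs was at 65.7 and 75.02 against 72.6 and 69.5, and Ticam1 at 15.4 and 11.7 against 16.0 and 14.9. The adaptor Myd88 passed 2-fold in Tom+ only.

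Negative regulators were represented by Usp18 and Socs1, while Cish, Ptpn2 and Ptpn6 stayed under 2-fold. Usp18, which removes Isg15 from proteins and blocks the interferon receptor, was at 296 and 408 CPM against 44.3 and 51.0. Socs1, an inhibitor of JAK kinases, ranked first among all features by the smaller of the 2 libraries' ratios: 21.6 and 23.7 CPM against 0.705 and 0.659, a log2 ratio of 4.95 (4.47 to 5.38) and 5.17 (4.75 to 5.57). Far below 10 CPM in others, Socs1 was compared only because members reached 10 CPM, so its call and a high rank were in part fixed by this minimum. It was found in few cells, 13 of 59 and 17 of 55 deep members, and after thinning in 20.3% and 21.8% of members against 1.34% and 1.19% of others. The highest single member supplied 30.6% and 18.5% of its UMIs.

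Class I antigen presentation was higher in part. In deep cells 9 of 17 genes in Tom- and 7 of 16 in Tom+ passed 2-fold, with sums of 2454 against 1509 CPM and 2645 against 1740 CPM. The peptide transporters Tap1 and Tap2, the immunoproteasome subunits Psmb8 and Psmb9, the class I transactivator Nlrc5 and H2-Q7 were higher in both (Tap1 148 and 151 CPM against 34.5 and 30.9). Of the chains, B2m and the classical heavy chains stayed under 2-fold: B2m was at 171 and 183 CPM against 148 and 158, H2-K1 at 888 and 1051 against 671 and 909, and H2-D1 at 101 and 103 against 69.6 and 73.7. Cd274 (PD-L1, a ligand that restrains T cells) was at 30.4 and 51.4 CPM against 2.26 and 2.21. The class II gene Cd74 was at 14.1 and 20.03 against 16.0 and 18.1. Of the 10 measured interferon-gamma-led genes, 3 of 4 tested were higher in Tom- (Cxcl9, Cd274 and Irf8) and 2 of 3 in Tom+ (Cxcl9 and Cd274), against 8 of 8 and 7 of 7 over all depths. Cd274 and Irf8, low in others, were tested only because members reached 10 CPM, so their calls were fixed by the minimum. These counts therefore do not describe the list as a whole. Fam26f, a membrane channel-like protein that interferon induces, was at 10.1 and 14.2 CPM against 0.605 and 0.670, and its call was fixed by the minimum too.

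In the 114 deep members the selection gene with the most UMIs was Rsad2 in 70 cells (37 Tom- and 33 Tom+), Ifit3 in 21 (11 and 10), Cxcl10 in 20 (10 and 10) and another in 3. Of the 20 Cxcl10-led cells 16 had no UMI of Rsad2, whereas each of the remaining 94 deep members had at least 1. Which gene leads depends on how well each probe set captures its gene, so the groups are relative and do not rank the genes' levels. The choice itself favours such a split, since a cell without Rsad2 could enter only through another selection gene. The groups therefore serve as a description, and no test was made on the genes that differ between them.

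Rsad2-led and Ifit3-led cells shared the antiviral genes. Isg15 was at 932 CPM in Rsad2-led and 997 in Ifit3-led cells but at 127 in Cxcl10-led cells, against 42.9 in other deep hepatocytes. Irf7 was at 606, 558 and 244 CPM, against 143. Usp18 was at 463, 219 and 126 CPM, against 47.5. The antiviral effectors summed to 6084 CPM in Rsad2-led, 5034 in Ifit3-led and 3329 in Cxcl10-led cells. The GTPases did not follow this order, with 2376, 1747 and 2639 CPM.

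Irf1, Cxcl9 and several NF-kB targets were highest in Cxcl10-led cells. Irf1 was at 346 CPM in them (252 in Tom- and 432 in Tom+), against 72.2 in Rsad2-led and 27.8 in Ifit3-led cells and 35.2 in other deep hepatocytes. Cxcl9, an interferon-gamma-led T cell chemokine, was at 1284 CPM (Tom-) and 1331 CPM (Tom+) in Cxcl10-led cells, against 182 and 98.7 in Rsad2-led cells and 18.1 and 21.8 in other deep hepatocytes. Ifit3-led cells were at 169 and 211 CPM. In both libraries Irf1 and Cxcl9 were thus higher in Cxcl10-led than in Rsad2-led and Ifit3-led cells. The 10 measured interferon-gamma-led genes summed to 1440 CPM in Cxcl10-led and 225 CPM in Rsad2-led cells, but Cxcl9 supplied 1308 CPM of the former, and Cd274 was at 48.6 against 51.0 CPM.

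Of the NF-kB targets and chemokines 9 of 13 were higher in deep Tom- members and 6 of 12 in deep Tom+ members, and 5 of 11 were higher in both. Within them, Icam1, an adhesion molecule for leukocytes, was at 501 and 341 CPM in Cxcl10-led cells and 24.4 and 27.9 CPM in Rsad2-led cells, and at 22.9 and 24.2 CPM in other deep hepatocytes. In Ifit3-led cells Icam1 was at 116 CPM (Tom-) and 40.0 CPM (Tom+). Nfkbia, the inhibitor that NF-kB induces, was at 665 and 654 CPM in Cxcl10-led cells, against 219 and 230 in Rsad2-led and 140 and 167 in Ifit3-led cells. The 22 NF-kB targets and chemokines summed to 3002 CPM in Cxcl10-led cells (cell median 2081) and to 561 in Rsad2-led cells (cell median 462). The neutrophil chemokine Cxcl2 was found in 4 Tom- and 3 Tom+ deep members, 5 of them Cxcl10-led, and 1 member in each library supplied 38.0% (Tom-) and 55.9% (Tom+) of its deep UMIs.

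The acute phase protein Saa1 was at 4773 and 1879 CPM in Cxcl10-led cells, 523 and 391 CPM in Rsad2-led cells and 361 and 290 CPM in other deep hepatocytes. Ifit3-led cells lay between, at 1353 CPM of Saa1 in Tom- and 500 CPM in Tom+. The cell median of Saa1 in Cxcl10-led cells was 2211 CPM, against 226 in Rsad2-led and 227 in Ifit3-led cells. The acute phase list as a whole was at 63448 CPM in Cxcl10-led and 47231 CPM in Rsad2-led cells. Over all deep members 5 of 22 acute phase genes were at least 2-fold higher in Tom- and 4 of 22 in Tom+. Saa1, Saa2, Saa3 and the ferrireductase Steap4 were higher in both, and Lcn2 in Tom- (121 against 33.2 CPM, and 56.5 against 41.2 CPM in Tom+). The Saa paralogs are similar in sequence and may share reads. The fibrinogen genes Fga, Fgb and Fgg, Orm1 and Crp had log2 ratios from -0.05 to 0.16.

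Across the 114 deep members Rsad2 correlated with Cmpk2 at a Spearman rho of 0.89, with Ifit3 at 0.78, with Oasl1 at 0.74, with Usp18 at 0.70 and with Isg15 at 0.60. It had a rho of 0.03 with Cxcl10 and -0.14 with Irf1. Cxcl10 correlated with Irf1 at 0.57, Socs1 at 0.54, Cd274 at 0.50, Tgtp1 at 0.43 and Cxcl9 at 0.38, and with Isg15 at -0.24. These values are over cells of 2 libraries that share depth differences and a selection on the sum of the 7 genes, and are given as a description with no p. Of the 70 Rsad2-led cells 40 had a Cxcl10 UMI.

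**Figure D4:**
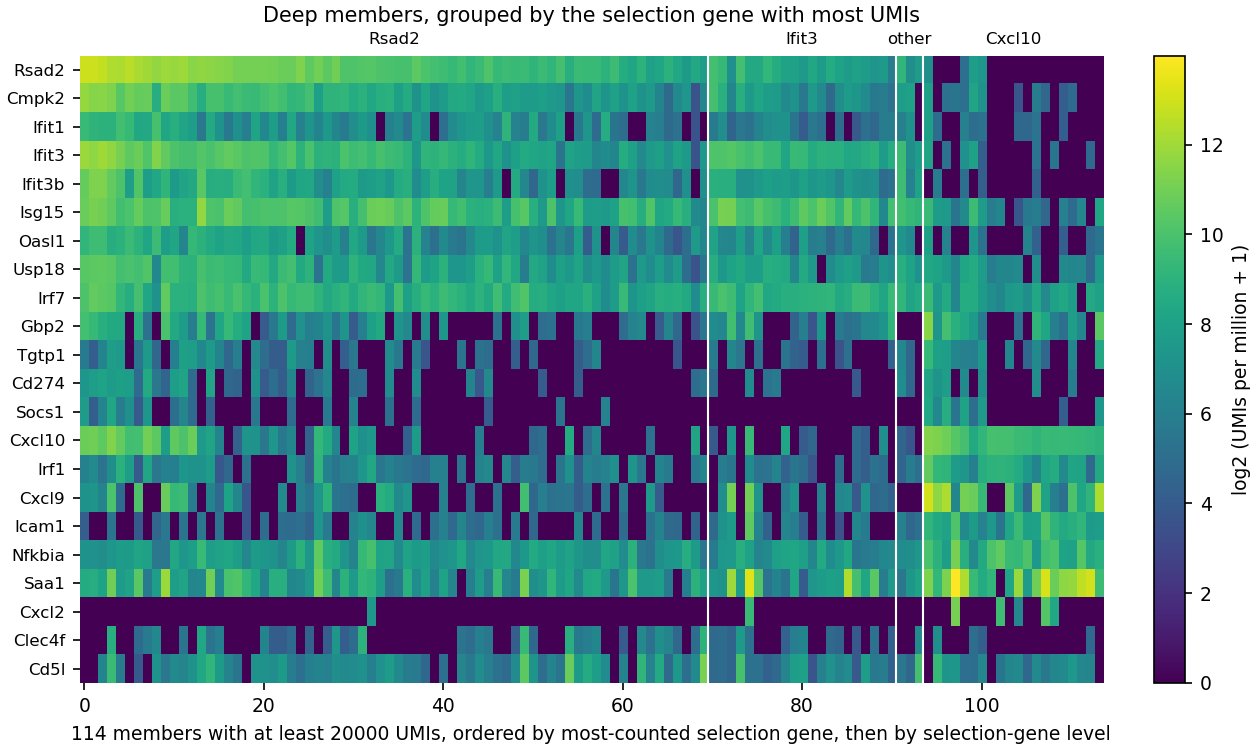
Level of 22 genes (log2 of CPM plus 1) in each of the 114 deep members, with cells in columns grouped by the selection gene with the most UMIs. Rsad2- and Ifit3-led cells share Isg15, Usp18 and Irf7, Cxcl10-led cells at the right show Irf1, Cxcl9, Icam1, Nfkbia and Saa1 with little Rsad2, and Clec4f is detected in part of the cells of each group.

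Genes outside the selection followed the rank in deep cells. The 25 highest deep cells held 8397 CPM of the 46 antiviral effectors, ranks 26 to 50 held 5886, ranks 51 to 114 held 4095, and the next 186 cells, already outside the members, held 2959. Ranks 301 to 1000 held 2496 and the 14802 lowest cells 2075 CPM. GTPases ran from 3627 through 2659 and 1591 to 906 CPM in the same first 4 bins and 467 in the lowest cells, and class I genes from 3232 to 1607. Macrophage markers were at 512, 543 and 521 CPM in the 3 member bins, 1179 CPM at ranks 115 to 300 and 340 CPM in the lowest cells. Their level was thus highest just below the members, in cells where effectors had fallen to 2959 CPM, and their part in those bins was not tested.

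**Figure D5:**
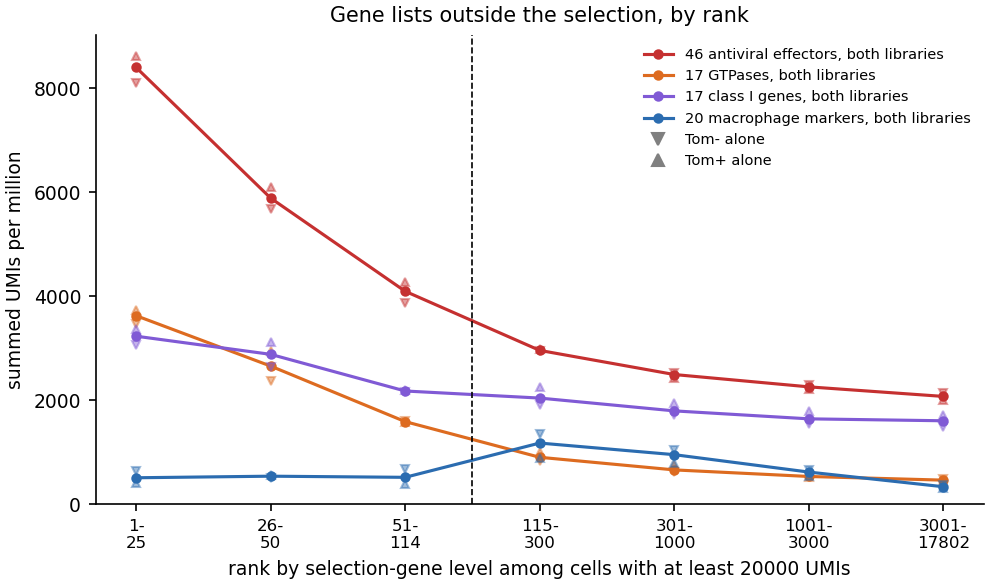
Summed level (CPM) of 4 gene lists in deep hepatocytes by rank of the selection-gene level, the rank bins being unequal in size. Circles joined by lines are both libraries, triangles single libraries, and the dashed line is the limit of the members. Effectors, GTPases and class I genes decline without a step, and macrophage markers peak at ranks 115 to 300.

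Hepatocyte functions outside the interferon response mostly stayed under 2-fold. In deep cells 0 of 20 tested cytochrome P450 genes, 0 of 11 p53 targets and 0 of 13 zone 1 markers differed 2-fold in either library, and of 14 stress genes only Hmox1 (heme oxygenase, 26.5 and 24.04 CPM against 10.2 and 8.90) was higher. The p53 targets nevertheless leaned 1 way, with 10 of 11 above a log2 ratio of 0 in Tom- (median 0.42) and 9 of 11 in Tom+ (median 0.24). Most cell death genes also stayed under 2-fold, with the exceptions of Mlkl, the effector of necroptosis (25.6 and 24.04 CPM against 5.76 and 7.26), and Tnfsf10 (TRAIL, 19.0 and 22.6 against 2.36 and 2.48), both known to be interferon-induced, and Bcl2l11 in Tom-. Of the immediate early genes 2 of 12 were higher in Tom- and 1 of 12 in Tom+, where Ier3 was at 16.3 and 12.0 CPM against 3.19 and 4.32. Of the cell cycle genes 0 of 3 tested were higher in deep members.

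Markers of position along the lobule were compared next. Hepatocytes near the central vein (zone 3) and those near the portal tract (zone 1) express different enzymes. In Tom- deep members the 14 zone 3 markers summed to 6910 CPM against 5125 in others (cell medians 5012 and 2661), and the 13 zone 1 markers to 18101 against 21549. Tom+ deep members had 8848 against 8839 and 15957 against 15631 CPM. Among zone 3 genes Cyp2c29 was at 4372 against 3131 CPM in Tom- and 5008 against 4940 CPM in Tom+, and among zone 1 genes Ass1 was at 3150 against 4445 and 2824 against 3024 CPM. Of the zone 3 markers 1 of 11 tested passed 2-fold in Tom- (Rhbg, 15.4 against 7.68 CPM) and 0 of 12 in Tom+. In Tom- members 11 of 11 zone 3 markers lay above a log2 ratio of 0 (median 0.44) and 0 of 13 zone 1 markers did (median -0.47). In Tom+ members 5 of 12 and 2 of 13 did (medians -0.06 and -0.10), so that the zone 1 median was below 0 although the sum was slightly higher. The difference between the libraries was not tested.

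Few features were lower. Obp2a, which encodes a lipocalin, was the one feature at least 2-fold lower in both libraries, with 25.6 against 79.5 CPM in Tom- and 10.9 against 36.9 CPM in Tom+ deep cells (log2 -1.62, -2.03 to -1.26, and -1.73, -2.32 to -1.24). It was detected in 17 of 59 and 13 of 55 members. Next by the larger of the 2 ratios were Nudt16, the adrenergic receptor Adra1a, the lipid transporter Mfsd2a, Dclk3, the fatty acid-binding protein Fabp2, Mycl, Zmynd8, Pfkfb1 and Myo15b, none of them 2-fold lower in both. Mfsd2a was at 35.3 against 56.6 and 19.3 against 37.1 CPM.

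The reporter and the senescence genes that could be compared differed by less than 2-fold. tdTomato was at 61.7 CPM in Tom- deep members against 70.3 in others, and at 854 against 796 CPM in Tom+. Cdkn1a (p21) was at 123 against 105 and 103 against 86.9 CPM. The feature named Cdkn2a, the p16Ink4a locus, had no UMI in deep members, which allows up to 1.32 and 1.09 CPM. It was at 0.203 and 0.192 CPM in others, so that a difference in this feature was not detectable at this depth. A further feature for the same locus is not reported here, so the absence of UMIs holds for the Cdkn2a feature and not for the locus. The LINE-1 feature L1Md_A was at 2930 against 2841 and 3024 against 3341 CPM.

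Members were 195 of 16083 Tom- hepatocytes (1.21%, 95% exact binomial interval 1.05 to 1.39) and 105 of 10600 Tom+ hepatocytes (0.991%, 0.811 to 1.198), a Tom+ to Tom- ratio of 0.817 (0.638 to 1.04). Among deep cells they were 59 of 9618 (0.613%) and 55 of 8184 (0.672%), a ratio of 1.10 (0.745 to 1.61), and among shallow cells 6.26% and 5.80%. Both of these intervals contain 1. Under 5 other choices of the cells the interval lay below 1: the ratio was 0.692 (0.580 to 0.825) with 600 cells, 0.759 (0.591 to 0.969) with Rsad2 and Cmpk2 alone, and 0.766 (0.597 to 0.978) with each cell thinned to 5000 UMIs. It was 0.643 (0.498 to 0.826) in 300 cells chosen anew among those with no UMI of Ptprc, Pecam1 or Dcn, 135 of them main members. It was 0.703 (0.556 to 0.888) in 300 chosen anew among cells with at most 2 macrophage UMIs, 18 of them main members. Under others it contained 1, with 0.904 (0.637 to 1.27) for 150 cells, 0.793 (0.619 to 1.01) without Cxcl10 in the score, 0.940 (0.598 to 1.46) at 20000 to 60000 UMIs, 0.927 (0.629 to 1.34) in shallow cells and 0.808 (0.613 to 1.06) with macrophage markers under 1% of UMIs. Whether the share differed beyond counting error thus depended on the choice of members, and the fraction cannot be told apart from the library, since each fraction is 1 library. The 50 highest cells comprised 26 Tom- and 24 Tom+ cells, a ratio of shares of 1.40 (0.770 to 2.54), and the 100 highest 57 and 43 (1.14, 0.752 to 1.73), both above 1 where the ratio over the 300 members was below it. The libraries shared 503 barcodes, none of them in members.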

How the data were processed

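Hepatocytes of fixed mouse liver were profiled with 10x Genomics Flex, in which pairs of probes are ligated on the RNA. The authors counted UMIs per feature and cell with Cell Ranger 7.2.0 on mm10, per the submitters' processing notes, and deposited raw counts for 19073 features. Levels are not comparable between genes, and related genes may share probes. Here hepatocytes were selected as described above, a per-cell marker limit standing in for the clusters removed in the study. No doublet caller was run. Counts were summed over members and over others of each library and divided by their total (CPM), with exact Poisson intervals. Ratios used a pseudocount of 0.5 counts and exact conditional intervals, and shares used Clopper-Pearson intervals at 95%. The calculation was tested on simulated data (Python 3.11.15, numpy 2.4.6, scipy 1.17.1, pandas 2.3.3, matplotlib 3.10.9). Genes were named as the 15 with the largest smaller ratio and the 10 with the smallest larger ratio of the 2 libraries, and from role lists. Subsets led by 1 selection gene, and Mpeg1, were described after values were seen. The members, lists and depth classes were chosen with earlier results of these data known. Each library held 23220 or 16339 barcodes and 681279005 or 715333889 UMIs (Tom-, Tom+). Some features that the rule or lists name are not reported here. RefSeq sequences were matched by symbol, and a promoter was present for 95 of the 131 genes higher in both libraries. Alternatives varied the score, depth, number of cells, marker limits and minimum CPM.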

Additional observations from a re-analysis of the deposited data

Results flagged for a closer look

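In 2 gene lists summed over all depths the members of the 2 libraries differed from the other hepatocytes in opposite directions with counting intervals that did not contain 0. The cytochrome P450 genes had a log2 ratio of 0.096 in Tom- and -0.078 in Tom+, and the zone 3 markers 0.321 in Tom- and -0.033 in Tom+. The difference between the libraries was not tested, since each group has 1 library. In deep cells the zone 3 markers had log2 ratios of 0.43 and 0.00. The cytochrome P450 genes kept opposite directions there, with 0.179 (0.164 to 0.194) in Tom- and -0.047 (-0.060 to -0.034) in Tom+.

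Cells left out of the comparison carried the selection genes too. Of the cells that failed only the limit on Ptprc, Pecam1 and Dcn, 3.66% in Tom- (149 of 4076) and 1.98% in Tom+ (55 of 2778) reached the value of the lowest member, with macrophage markers at 1788 and 1316 CPM. Of the cells with fewer than 2000 genes the shares were 14.2% (377 of 2663) and 15.8% (265 of 1682), at median depths of 2154 and 1702 UMIs, where 2 UMIs are enough to pass. The shares among the hepatocytes themselves were 1.21% and 0.991%.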

How the results depend on the processing

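No paired analysis was possible because neither group has a second library, which also means that no library could be left out. The Tom+ to Tom- ratio of shares (0.817, 0.638 to 1.04) took values inside this interval under 10 alternatives, but under 5 of them its own interval lay wholly below 1. It was 1.10 (0.745 to 1.61) among cells with at least 20000 UMIs. The number of effectors at least 2-fold higher (36 in Tom-, 37 in Tom+) was within 1.5 times under 13 alternatives each. With cells limited to 2 UMIs of the macrophage list it was 10 of 34 and 6 of 33 tested. There the 300 cells were chosen anew among 2922, and 18 of them were main members. With a minimum of 50 CPM it was 23 of 29 (79.3%) and 24 of 30 (80%), against 36 of 42 (85.7%) and 37 of 43 (86.0%) in the main choice. The number of features higher in both libraries (354) was 223 with 150 cells, 193 in cells with no UMI of Ptprc, Pecam1 or Dcn, 133 with at most 2 macrophage UMIs, 155 at 20000 to 60000 UMIs, 101 with a minimum of 50 CPM, 1691 with no CPM minimum and 1166 with the mean over cells of the CPM. Among alternatives chosen after seeing the data it was 131 of 7756 (1.69%) in deep cells and 1124 of 9180 (12.2%) in shallow cells. In cells with macrophage markers under 1% of UMIs it was 172 of 7908 (2.18%). It was within 1.5 times under the other 5. Of the 300 members 267 were kept when Cxcl10 was left out of the score and 237 with Rsad2 and Cmpk2 alone. In 300 cells chosen anew among those with no UMI of Ptprc, Pecam1 or Dcn, 135 were main members. With each cell thinned to 5000 UMIs 210 were kept, and the lowest member there had 3 UMIs. Depth limits the shallow members, whose choice can rest on 2 UMIs. The causes of these changes were not tested.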

Other observations

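Over all hepatocytes the features whose share followed the selection-gene share most closely were Mrc1, Oasl2, Sp100, Gbp8, Ifi203, Ifi207, Tmsb4x, Cd5l, Marcks and Clec1b, with Spearman values from 0.154 down to 0.141 (the lower of the 2 libraries, over 16083 and 10600 cells). These values are weak and are a description over sparse counts. Mrc1, Cd5l and Clec1b are known from macrophages and sinusoidal cells, and Oasl2, Sp100, Gbp8, Ifi203 and Ifi207 from interferon responses.

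Macrophage-rich profiles outside the members, 427 in Tom- and 135 in Tom+, held 393 and 258 CPM of the selection genes and 6457 and 6003 CPM of the antiviral effectors. The 38 and 21 macrophage-rich members held 1043 and 1407 CPM of the selection genes and 9229 and 12058 CPM of the effectors. Deep members held 2781 and 3543 CPM of the selection genes with 5159 and 5654 CPM of effectors.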
